A study of Mus musculus with 6 samples.

Results

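The 10 genes described here encode the enzymes that turn arachidonic acid into prostaglandins, thromboxane and leukotrienes: Pla2g4a, Ptgs1, Ptgs2, Ptges, Tbxas1, Hpgds, Alox5, Alox5ap, Ltc4s and Lta4h. They were chosen by name, as the genes of arachidonate release, of the cyclooxygenase and lipoxygenase steps and of the terminal synthases. The rule used no measured value, but earlier results of these data were known when the genes were chosen. All 10 were found among the 56832 gene names of the count files. The study sequenced polyadenylated RNA of cells labelled as monocytes, isolated from peripheral blood of mice, in 3 thrombocytopenic and 3 control libraries, to ask how monocyte RNA differs when platelets are depleted. The thrombocytopenic mice were PF4cre-iDTR: Cre recombinase driven by the Pf4 (platelet factor 4) promoter switches on a receptor for diphtheria toxin in megakaryocytes, the cells that shed platelets. The controls were wild type (WT), and both groups are listed as treated with diphtheria toxin. Genotype and platelet state therefore cannot be told apart. No age, sex or time after toxin is given in the sources used here. Whether the 3 libraries of a group are 3 mice is not stated, and the p-values below reflect the variation among these libraries, part or all of which may be technical.

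Arachidonic acid is cut from membrane phospholipids by cytosolic phospholipase A2 (Pla2g4a). The cyclooxygenases Ptgs1, usually made at a steady level, and Ptgs2, induced by inflammatory signals, convert it to prostaglandin H2, which terminal synthases turn into prostaglandin E2 (Ptges), thromboxane A2 (Tbxas1) or prostaglandin D2 (Hpgds). In the other branch, 5-lipoxygenase (Alox5) works with its membrane partner, the 5-lipoxygenase activating protein (Alox5ap), to make leukotriene A4. Lta4h turns that into leukotriene B4, a neutrophil attractant, and Ltc4s turns it into leukotriene C4, the first of the cysteinyl leukotrienes. Monocytes and macrophages are known sources of prostaglandin E2 and leukotriene B4, platelets of thromboxane, and mast cells, basophils and eosinophils of leukotriene C4.

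The libraries held 24842319 to 37552029 counts. Within each group every pair of libraries differed beyond counting noise (chi-square of 1.89 to 3.24 per degree of freedom). Correlations of their log2 levels were 0.9975 to 0.9982. Neither value shows whether the libraries are separate mice, and each was treated as 1 replicate in the tests. The 10 monocyte markers (Csf1r, Cd14, Lyz2 and others) were all detected, with a summed level of 18301 to 18586 CPM (counts scaled to a common library total) in the thrombocytopenic libraries and 16430 to 16854 CPM in the controls. The 9 macrophage markers did not move together, with 2 higher and 5 lower of 8 tested. Adgre1 (3284 ± 90.1 against 2711 ± 82.4 CPM, mean ± SD, n = 3 in each group) and Mrc1 (276 against 162 CPM) were higher. Lower were Mertk (4.93 against 14.1 CPM), the complement genes C1qa (log2 fold change -0.71), C1qb (-0.41) and C1qc (-0.51), and Timd4. Timd4 was over the filter on low counts in 3 controls and 1 thrombocytopenic library, so the direction of its call was set by the filter. Of the other 7 tested genes 2 were higher and 4 lower. The means of Timd4 (0.404 against 0.936 CPM) and Cd163 (0.535 against 0.429 CPM) were under 1 CPM. Vsig4 had no count. The list summed to 3880 to 4051 CPM against 3447 to 3564 CPM, most of it Adgre1, and the part of macrophages in the results below was not tested. T and NK cell markers summed to at most 1.14 CPM in any library, and Cd3d, Cd3e, Cd3g, Ncr1 and Nkg7 had no count. In sequenced bulk RNA, fewer cells of a type and less RNA per cell cannot be told apart.

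The start regions of 4 prostanoid genes are shown because these genes moved differently: Ptgs2 and Ptges were higher, Tbxas1 was lower and Ptgs1 did not pass the test. Each window runs from 250 bases before to 50 bases after the RefSeq start site, 5′ to 3′ along the gene's strand. Capitals mark matches, on either strand, to 6 short motifs. These were the core of the cAMP response element, TGACG, and the AP-1 site, TGANTCA. A loose form of the NF-kB site was 3 G and 2 C with any 5 bases between. The PU.1 core was GAGGAA, the C/EBP form TTGCNNAA and the TATA box TATAAA. In the 4 windows shown no match of a motif overlapped a match of another.
Ptgs2, chr1:150099781-150100080, plus strand: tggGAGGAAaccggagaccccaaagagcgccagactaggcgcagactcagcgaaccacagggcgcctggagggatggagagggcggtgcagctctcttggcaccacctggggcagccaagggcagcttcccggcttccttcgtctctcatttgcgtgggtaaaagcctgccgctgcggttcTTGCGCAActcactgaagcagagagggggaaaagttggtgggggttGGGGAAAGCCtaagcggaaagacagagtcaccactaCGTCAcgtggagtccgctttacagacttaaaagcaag
Ptges, chr2:30903248-30903547, minus strand: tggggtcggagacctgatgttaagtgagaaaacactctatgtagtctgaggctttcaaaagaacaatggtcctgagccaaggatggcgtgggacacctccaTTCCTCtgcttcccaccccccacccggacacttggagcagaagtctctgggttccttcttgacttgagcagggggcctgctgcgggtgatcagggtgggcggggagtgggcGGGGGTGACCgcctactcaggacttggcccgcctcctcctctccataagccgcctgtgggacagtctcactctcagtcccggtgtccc
Tbxas1, chr6:38918736-38919035, plus strand: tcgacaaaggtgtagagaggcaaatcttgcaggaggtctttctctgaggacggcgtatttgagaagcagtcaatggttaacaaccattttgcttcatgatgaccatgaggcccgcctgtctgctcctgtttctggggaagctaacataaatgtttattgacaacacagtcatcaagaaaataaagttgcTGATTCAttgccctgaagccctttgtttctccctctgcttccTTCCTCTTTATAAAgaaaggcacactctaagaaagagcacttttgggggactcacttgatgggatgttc
Ptgs1, chr2:36230176-36230475, plus strand: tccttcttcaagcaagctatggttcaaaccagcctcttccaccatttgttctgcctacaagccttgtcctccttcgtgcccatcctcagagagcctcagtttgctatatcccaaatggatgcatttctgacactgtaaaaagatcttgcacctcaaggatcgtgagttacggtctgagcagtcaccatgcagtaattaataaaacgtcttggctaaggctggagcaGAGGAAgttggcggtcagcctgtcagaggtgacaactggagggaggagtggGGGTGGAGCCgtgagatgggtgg
The sequences and coordinates are those of RefSeq on GRCm38.p6, which may not be the build of the counts.

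The Ptgs2 window held the C/EBP form TTGCGCAA and the CGTCA core, and neither motif was matched in the windows of Ptges, Tbxas1 and Ptgs1. The window of Hpgds, not shown, also held a C/EBP form (TTATGCAA) but no TGACG core. The log2 fold change of Hpgds was 0.16. Of 32851 RefSeq windows of this length, 10.8% held the C/EBP form and 20.8% the TGACG core. The AP-1 and TATA matches were in the Tbxas1 window alone among the 4 shown, against 7.81% and 13.6% of all windows. All 4 held GAGGAA (28.3% of all windows), and all but Tbxas1 held the loose NF-kB form (50.8%). Pla2g4a has 2 RefSeq start windows, and only the window nearest its GENCODE M21 gene start was searched. That window matched none of the 6 motifs. A match is a run of letters and not a measured binding site.

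Of the 10 enzyme genes, 6 were higher and 3 lower in the thrombocytopenic libraries by edgeR's quasi-likelihood test at a Benjamini-Hochberg adjusted p under 0.05, with Ptgs1 not past the threshold. One of the 3 lower, Ltc4s, passed the filter on low counts only through the controls, so that its direction was set by the filter; of the other 9 genes 6 were higher and 2 lower. The same test called 45.1% of all 12488 tested genes, 22.4% higher and 22.7% lower, so that a call by itself sets an enzyme gene little apart, and the sizes matter more. The genes of the successive steps to prostaglandin E2 were all higher: Pla2g4a 1.80-fold, Ptgs2 2.66-fold and Ptges 1.36-fold. Tbxas1, the thromboxane synthase gene, was 1.43-fold lower. In the leukotriene branch Alox5 was 1.81-fold higher, while its partner Alox5ap and the synthase Lta4h differed less, 1.08-fold higher and 1.12-fold lower. The median log2 fold change of the 10 genes was 0.13, against -0.00077 over all tested genes. The groups did not overlap for 8 of the 10 genes, against 51.3% of all tested genes. They lay above the controls for 5 genes (25.3% of all tested genes) and below for 3 (26.0%), of which Ltc4s is again 1. Only Ptgs2 was at least 2-fold higher among them, a size reached with an adjusted p under 0.05 by 0.897% of tested genes.

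**Figure D1:**
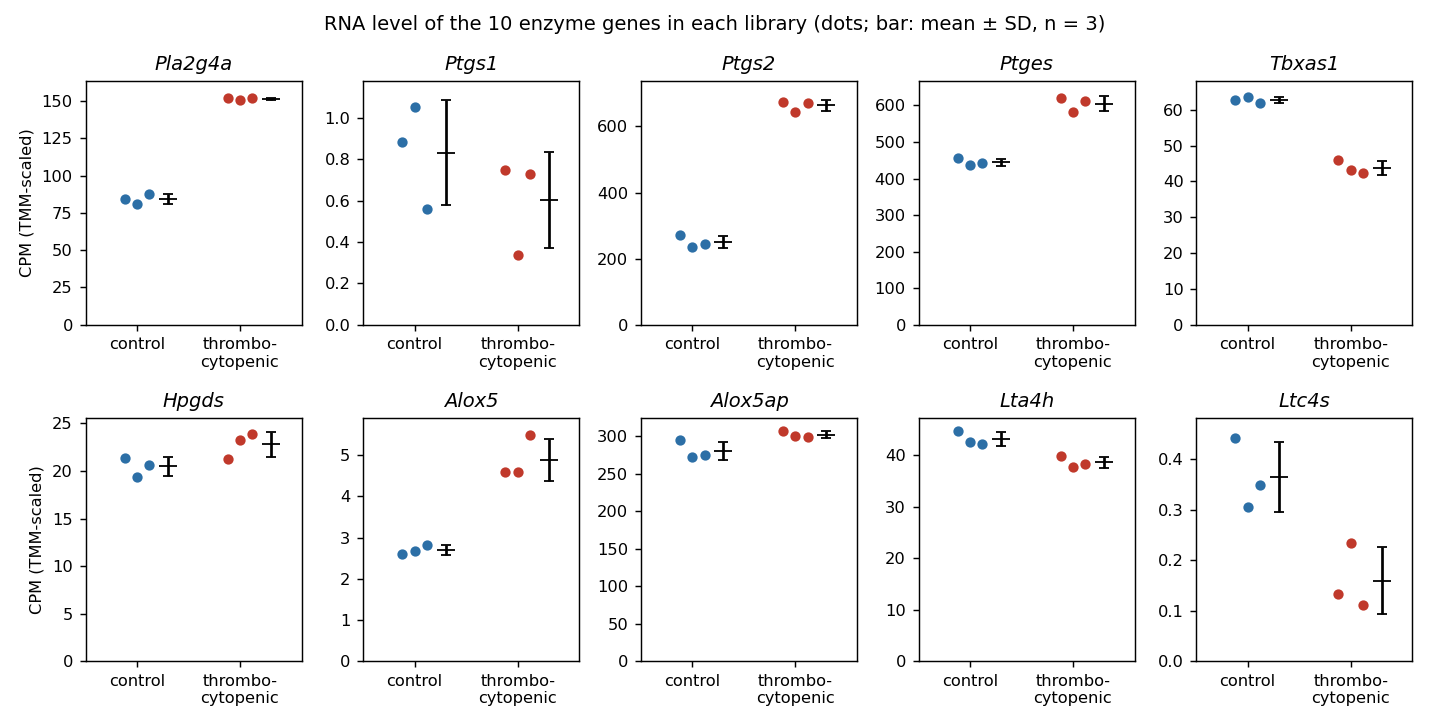
Each panel shows 1 enzyme gene, with its level in CPM (scaled by TMM, axis from 0) in the 3 control (blue) and 3 thrombocytopenic (red) libraries and the mean ± SD of each group. The groups are apart for Pla2g4a, Ptgs2, Ptges, Alox5, Alox5ap, Tbxas1, Lta4h and Ltc4s, and overlap for Ptgs1 and Hpgds.

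Pla2g4a, the phospholipase that opens the pathway, stood at 152, 151 and 152 CPM in thrombocytopenic replicates 1, 2 and 3 and at 84.3, 80.9 and 87.8 CPM in the controls. The 3 thrombocytopenic libraries lay within 1 CPM of each other, far above the highest control. Its mean was 151.6 ± 0.522 against 84.3 ± 3.43 CPM (SD, n = 3), a log2 fold change of 0.85 (SE 0.032, edgeR adjusted p = 5.51e-29).

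Ptgs2, cyclooxygenase 2, had 675, 645 and 671 CPM in the thrombocytopenic libraries and 271, 235 and 245 CPM in the controls. Every thrombocytopenic library exceeded every control by more than 2-fold. The mean rose from 250.02 ± 18.8 to 664 ± 16.4 CPM (SD, n = 3), a log2 fold change of 1.41 (SE 0.047, 95% interval 1.30 to 1.52, edgeR adjusted p = 2.20e-09), larger than that of 98.2% of tested genes in absolute size. Ptgs1, cyclooxygenase 1, had few counts, 28, 10 and 26 counts in the thrombocytopenic libraries and 22, 38 and 16 in the controls. Its groups overlapped, at 0.604 ± 0.233 against 0.832 ± 0.253 CPM. The log2 fold change of -0.45 did not pass the test (edgeR adjusted p = 0.251), and its 95% interval of -1.07 to 0.17 leaves room for a fall by more than 2-fold. Nearly all cyclooxygenase counts, not corrected for length, were thus of Ptgs2: within a library there were 884, 1833 and 906 Ptgs2 counts for each Ptgs1 count in the thrombocytopenic group and 299.8, 219 and 426 in the controls.

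A pair of noncoding RNAs next to Ptgs2 was looked up after the values of Ptgs2 were known. Ptgs2os2, annotated downstream of Ptgs2 on the opposite strand, was at 9.96 ± 0.113 against 5.66 ± 0.651 CPM (log2 fold change 0.82, edgeR adjusted p = 9.56e-11). Ptgs2os, annotated upstream on the opposite strand, had 9, 6 and 10 counts against 2, 3 and 2, too few for the filter of the test. Neither shares an exon base with Ptgs2 in GENCODE M21. Pla2g4a and Ptgs2 are themselves adjacent protein-coding genes on mouse chromosome 1 in the RefSeq order. Of the 8 nearest coding genes, 4 on each side of the pair, 4 passed the filter: Rgs1 was lower (log2 fold change -0.64), Tpr higher (0.21), and Rgs18 (-0.13) and Odr4 (0.08) did not pass the test. None of these 4 rose as much as Pla2g4a or Ptgs2.

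Ptges, the inducible membrane-bound prostaglandin E synthase, was at 621, 582 and 613 CPM in the thrombocytopenic libraries and at 455, 436 and 442 CPM in the controls. All 3 thrombocytopenic libraries were above the highest control, with a mean of 605 ± 20.3 against 444 ± 9.60 CPM (SD, n = 3). The log2 fold change was 0.45 (SE 0.027, edgeR adjusted p = 9.50e-21). Ptges rose less than Ptgs2. In counts, not corrected for length, there were 1.68, 1.86 and 1.81 Ptges counts for each Ptgs2 count in the controls and 0.919, 0.903 and 0.913 in the thrombocytopenic libraries.

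Tbxas1, thromboxane A synthase, moved the other way. It stood at 45.9, 43.1 and 42.2 CPM in the thrombocytopenic libraries and at 62.6, 63.7 and 61.9 CPM in the controls, with no overlap. The mean fell from 62.7 ± 0.877 to 43.8 ± 1.94 CPM. On the log2 scale that was a change of -0.52 (SE 0.041, edgeR adjusted p = 5.41e-16). Tbxas1 and Ptgs1 are also known as platelet genes, so the platelet markers are given beside them. Of 12 platelet markers 6 could be tested: Pf4 and Ppbp were higher, and Itga2b, Gp9, Nrgn and Clec1b lower. Gp9, Nrgn and Itga2b were over the filter in at most 1 thrombocytopenic library and entered the test through the controls, so the direction of these 3 calls was set by the filter. The list summed to 1220 to 1286 CPM in the thrombocytopenic libraries and to 1012 to 1058 CPM in the controls, nearly all of it Pf4 and Ppbp. Among the listed markers Gp1bb had no count, and Tubb1 had 11 against 10 counts in 3 libraries together. Counted in the same way, Gp9 had 0 against 41 and Itga2b 36 against 75. Nrgn was at 0.018 against 3.69 CPM and Clec1b at 0.725 against 3.53 CPM. The part of platelet RNA in the levels of Tbxas1 and Ptgs1 was not tested. Tbxas1 itself had 4512 and 5629 counts in all, in the thrombocytopenic and the control libraries, and Ptgs1 had 64 and 76.

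Hpgds, the haematopoietic prostaglandin D synthase, was at 21.3, 23.3 and 23.8 CPM in the thrombocytopenic libraries and at 21.4, 19.4 and 20.7 CPM in the controls. Thrombocytopenic replicate 1 lay just under control replicate 1, so the groups overlapped. The mean was 22.8 ± 1.34 against 20.5 ± 1.03 CPM, and the log2 fold change of 0.16 (SE 0.059) passed narrowly (edgeR adjusted p = 0.0237). It missed the threshold without thrombocytopenic replicate 2 (adjusted p = 0.0642) or 3 (0.134), without control replicate 2 (0.189), with DESeq2 (0.0792) and with upper quartile scaling (0.0589).

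**Figure D2:**
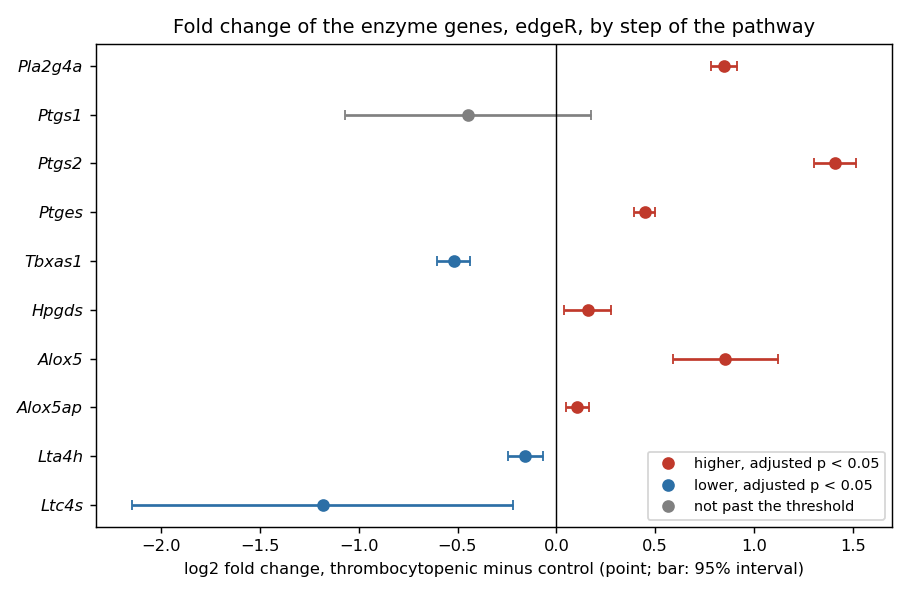
Points give the edgeR log2 fold change of each enzyme gene, thrombocytopenic minus control, and bars the 95% interval. The gene of largest rise is Ptgs2 (1.41), and the intervals are widest for Ptgs1 and Ltc4s, which had the fewest counts.

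Alox5, 5-lipoxygenase, was at 4.58, 4.59 and 5.48 CPM in the thrombocytopenic libraries and at 2.61, 2.67 and 2.82 CPM in the controls. The groups were apart, and the mean rose from 2.699 ± 0.110 to 4.88 ± 0.516 CPM (SD, n = 3; log2 fold change 0.86, SE 0.132, edgeR adjusted p = 2.60e-07). Its rise was close to that of Pla2g4a: the count ratio of Alox5 to Pla2g4a overlapped between the groups, with a log2 difference of -0.00087 (exact permutation p = 1, two-sided). Alox5ap, the activating protein that presents arachidonic acid to the lipoxygenase, was at 307, 300.003 and 299 CPM against 295, 273 and 275 CPM. The lowest thrombocytopenic library was above the highest control, by little, and the log2 fold change was 0.11 (SE 0.028, edgeR adjusted p = 0.0016). The activating protein thus had 66.9, 65.1 and 54.4 counts for each Alox5 count in the thrombocytopenic libraries, and 112, 102 and 96.7 in the controls.

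Lta4h, leukotriene A4 hydrolase, was at 39.8, 37.7 and 38.3 CPM in the thrombocytopenic libraries and at 44.7, 42.6 and 42.2 CPM in the controls. All thrombocytopenic libraries were below all controls, with a mean of 38.6 ± 1.07 against 43.2 ± 1.32 CPM. The log2 fold change was small, -0.16 (SE 0.045, edgeR adjusted p = 0.0029). Ltc4s, leukotriene C4 synthase, was nearly absent, with 5, 7 and 4 counts against 11, 11 and 10. It entered the test only because the 3 controls passed the filter of 10 counts scaled to library size, so a lower level in the other group was bound to appear. Its log2 fold change of -1.18 (SE 0.481, edgeR adjusted p = 0.0399) lost the threshold in 8 of 14 alternatives, with adjusted p-values of 0.0235 to 0.158 over all of them. These included leaving out thrombocytopenic replicate 1 (0.124) or 3 (0.158) or control replicate 1 (0.129), 2 (0.0553) or 3 (0.0769), DESeq2 (0.129), no filter on low counts (0.1) and the replicate block (0.0505).

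Ltc4s and Hpgds are also made by mast cells and basophils. Of 10 listed markers of these cells 7 were tested, 6 were lower and Hdc did not pass. Of the 6, Ms4a2, Mcpt8, Gata2, Prss34 and Cyp11a1 passed the filter only through the controls, which set the direction of their calls, and Kit (1.27 against 2.84 CPM) passed in both groups. The list summed to 93.4 to 99.4 CPM in the thrombocytopenic libraries and to 102 to 104 CPM in the controls. Hdc made up most of that sum (94.1 against 91.5 CPM). The basophil protease gene Mcpt8 had 2, 4 and 6 counts against 63, 82 and 57, and Ms4a2, a subunit of the IgE receptor, had 1 count in 3 thrombocytopenic libraries against 67 in the controls. The part of these cells in the levels of Ltc4s and Hpgds was not tested. Eosinophil markers summed to 5.32 to 6.68 against 3.28 to 3.62 CPM, nearly all of it Ccr3, with no count of Epx, Ear1 or Ear6 in any library. Neutrophils also express Alox5, Alox5ap and Lta4h. Of 10 neutrophil markers 7 were tested, 2 were higher and 1 was lower. The list summed to 489 to 496 CPM against 373 to 390.2 CPM, of which Mmp8 and Csf3r were the most, while Ly6g and Retnlg were near 0 and S100a8 was at 7.39 against 8.28 CPM. The part of neutrophils in the rise of Alox5 was not tested.

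**Figure D3:**
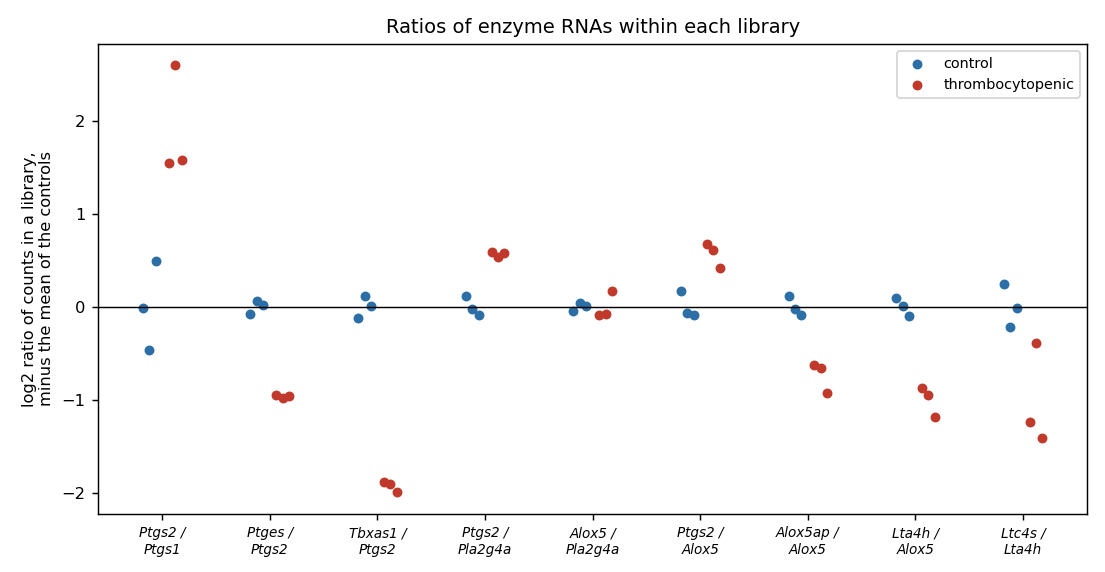
Dots show, for 9 pairs of consecutive or competing enzyme genes, the log2 ratio of their counts in each library minus the mean of the controls. Red and blue dots are apart for all pairs but Alox5/Pla2g4a, with the largest shifts for Tbxas1/Ptgs2 (-1.93) and Ptgs2/Ptgs1 (1.90).

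Ratios within a library do not depend on how the libraries are scaled, and 9 were compared. The groups did not overlap in 8 of them (7 of the 8 without Ltc4s), each with an exact permutation p of 0.1 (two-sided), the smallest that 3 against 3 libraries allow, and 0.1125 after adjustment over the 9, so none could pass 0.05. The log2 ratio of Tbxas1 to Ptgs2 was lower by 1.93 on the log2 scale in the thrombocytopenic libraries, at 0.0681, 0.0669 and 0.0629 Tbxas1 counts for each Ptgs2 count against 0.231, 0.272 and 0.253 in the controls. That of Ptgs2 to Ptgs1 was higher by 1.90, and without thrombocytopenic replicate 2, which had only 10 Ptgs1 counts, by 1.56. Ptgs2 gained on Pla2g4a and on Alox5 by the same amount (0.56 each). Lta4h lost against Alox5 by a log2 difference of -1.01, and Alox5ap by -0.74. The ratio of Ltc4s to Lta4h, which rests on few counts, differed by -1.02, by -1.33 to -0.82 when each library was left out in turn, and by -0.66 with 5 in place of 0.5 added to the counts.

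**Figure D4:**
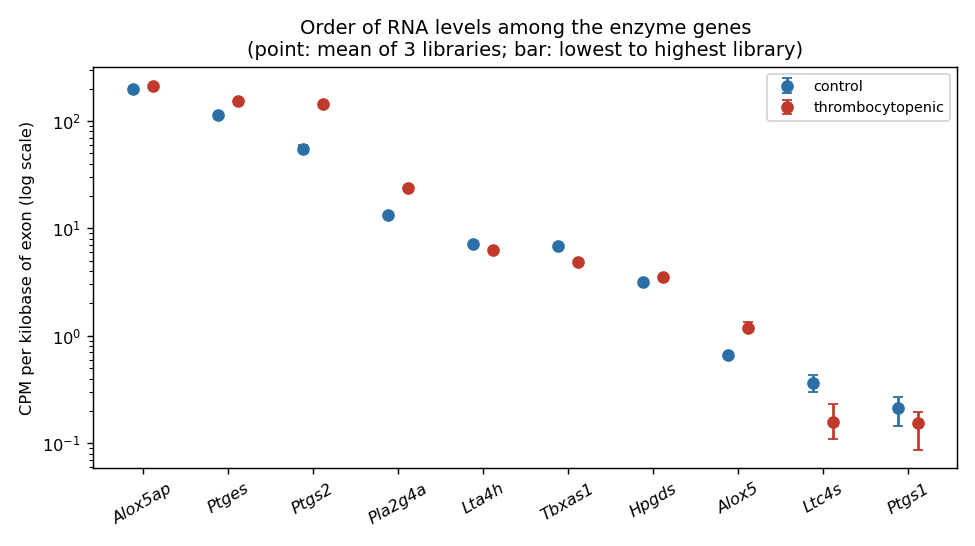
Points give the mean CPM per kilobase of exon (log scale) of each enzyme gene in control (blue) and thrombocytopenic (red) libraries, and bars run from the lowest to the highest of the 3 libraries. The genes are in the order of the controls, from Alox5ap at 198 to Ptgs1 at 0.214.

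To compare levels between genes, CPM were divided by exon length in kilobases (all exons of a gene in GENCODE M21, which may differ from the annotation used for counting). Exons of all annotated transcripts were joined, giving 1014 bases for Ltc4s and 9094 for Tbxas1. A gene whose RNA is shorter than its joined length comes out too low, so the order between genes is approximate. The order of the 10 genes was the same in both groups: Alox5ap, Ptges, Ptgs2, Pla2g4a, Lta4h, Tbxas1, Hpgds, Alox5, Ltc4s and Ptgs1. In the controls Alox5ap was at 198 ± 8.60, Ptges at 113 ± 2.44 and Ptgs2 at 54.6 ± 4.10 CPM per kilobase. In the thrombocytopenic libraries Ptgs2, at 144.9 ± 3.57, came close to Ptges at 154 ± 5.17, with ranges of 141 to 147 and 148 to 158. Neighbours whose ranges overlapped were Lta4h and Tbxas1 in the controls (7.07 and 6.90) and Ltc4s and Ptgs1 in the thrombocytopenic libraries (0.158 and 0.155). Alox5, the enzyme itself, was at 0.657 in the controls and 1.19 in the thrombocytopenic libraries, more than 100 times below its partner Alox5ap on this scale.

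Other genes of the pathway were read from 6 lists of 93 genes, of which 92 were in the files and 63 were tested. Of these, 21 were higher and 15 lower, 36 in all, with a median log2 fold change of 0.02. The share called in the whole table was 45.1%, with 22.4% higher and 22.7% lower. Among the 36 were 4 genes (Pla2g4f, Pla2g2e, Ggt5 and Ltb4r1) that stayed under 1 CPM in both groups. These 4 and Alox12 were over the filter in all libraries of 1 group and in at most 1 of the other, so the direction of their calls was set by the filter; of the other 58 tested genes 19 were higher and 12 lower.

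Among 17 tested genes of arachidonate release and reacylation 3 were higher and 6 lower, with a median of -0.23. Acsl4, which attaches arachidonic acid to coenzyme A, rose from 121 ± 3.92 to 166 ± 3.42 CPM (log2 fold change 0.45, edgeR adjusted p = 2.06e-18). Pla2g7, the hydrolase of platelet-activating factor, rose by 0.44 and Lpcat2, which makes that lipid, by 0.20. Lower were the phospholipase and acyltransferase gene Plaat3 (-0.61), the diacylglycerol lipase gene Daglb (-0.44) and the lysophospholipid lipase gene Abhd12 (-0.33). Mboat7, which returns arachidonic acid to phosphatidylinositol, was at 39.0 against 37.6 CPM and the lysosomal phospholipase gene Pla2g15 at 14.1 against 15.2 CPM, neither past the test.

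Of 7 tested genes of other prostaglandin synthases and reductases 2 were higher and 1 was lower, with a median of 0.10. The aldo-keto reductase gene Akr1b8 rose by 0.54 and Ptges3, a cytosolic prostaglandin E synthase and chaperone partner, by 0.14. The carbonyl reductase gene Cbr1 was at -0.28. Ptges2, a further prostaglandin E synthase, was at 15.7 against 14.6 CPM and Akr1b3, aldose reductase, at 91.2 against 86.4 CPM, neither past the test. The prostacyclin synthase gene Ptgis and Ptgds had no count. A further list held other lipoxygenases, epoxide enzymes, membrane glutathione transferases, Cotl1 and Gpx4. None of its 8 tested genes was higher and 3 were lower, with a median of -0.15. Its only tested lipoxygenase was Alox12. Alox12, the platelet-type 12-lipoxygenase, had 9, 4 and 20 counts in the thrombocytopenic libraries and 26, 33 and 32 in the controls (log2 fold change -1.66, edgeR adjusted p = 5.99e-05). It passed the filter through the controls, with 1 thrombocytopenic library over it, and a lower level was bound to appear. Alox15, another lipoxygenase gene, was too low to test. Cotl1, a protein that binds 5-lipoxygenase, fell by 0.14 and Mgst1 by 0.28, while Gpx4, which reduces lipid hydroperoxides, was at 69.4 against 72.9 CPM and did not pass.

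Genes of breakdown and transport were higher in 5 of 11 tested members and lower in 2, with a median of 0.10. Ptgr1, which inactivates leukotriene B4 and prostaglandin metabolites, was at 171, 166 and 177 CPM in the thrombocytopenic libraries and at 99.1, 108 and 107 CPM in the controls. It rose clear of the controls, by 0.71 on the log2 scale (SE 0.033, edgeR adjusted p = 4.43e-25). Dpep2, a dipeptidase that processes cysteinyl leukotrienes, rose by 0.52 and Abcc1, which exports leukotriene C4, by 0.33. Cyp4f18, the oxidase of leukotriene B4, fell from 5.95 ± 0.461 to 2.63 ± 0.475 CPM (-1.19), and Abcc4, a prostaglandin exporter, was at -0.12. Ptgr2 and Cyp4f16 did not pass, at 32.8 against 30.5 CPM and 16.4 against 15.5 CPM.

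Of 14 prostanoid and leukotriene receptor genes 6 were tested, 3 were higher and 2 lower, with a median of 0.13; without thrombocytopenic replicate 1 the calls numbered 3 in place of 5. Cysltr1, the main receptor of cysteinyl leukotrienes, rose from 39.7 ± 1.02 to 68.1 ± 1.31 CPM (0.78, edgeR adjusted p = 2.89e-23), while Cysltr2 fell by 0.60. The prostaglandin E2 receptors moved apart: Ptger2 fell from 57.2 ± 2.32 to 41.0 ± 0.470 CPM (-0.48) and Ptger4 rose from 22.5 ± 0.740 to 26.1 ± 0.847 CPM (0.22). Ptgir, the prostacyclin receptor, was at 57.3 against 55.8 CPM and did not pass. A list of genes known to act on Ptgs2 or Pla2g4a held kinases, transcription factors, RNA-binding proteins and Anxa1. Of its 14 genes 8 were higher, Anxa1 (0.06) and Zfp36 (0.14) among them, and 1 was lower, with a median of 0.10. Over all tested genes 22.4% were higher and 22.7% lower. The list was not split by whether a gene raises or lowers Ptgs2 or Pla2g4a. Cebpd, a C/EBP factor, rose from 71.8 ± 4.39 to 139.1 ± 5.13 CPM (0.95, edgeR adjusted p = 6.68e-25), whereas Cebpb was at 122 ± 4.58 against 130.4 ± 13.1 CPM and did not pass (-0.10). Mapk14, the p38 kinase, rose by 0.51 and its partner Mapkapk2 by 0.44. Zfp36l1, an RNA decay factor, fell by 0.28, and Nfkb1 was at 884 against 870.04 CPM, not past the test.

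**Figure D5:**
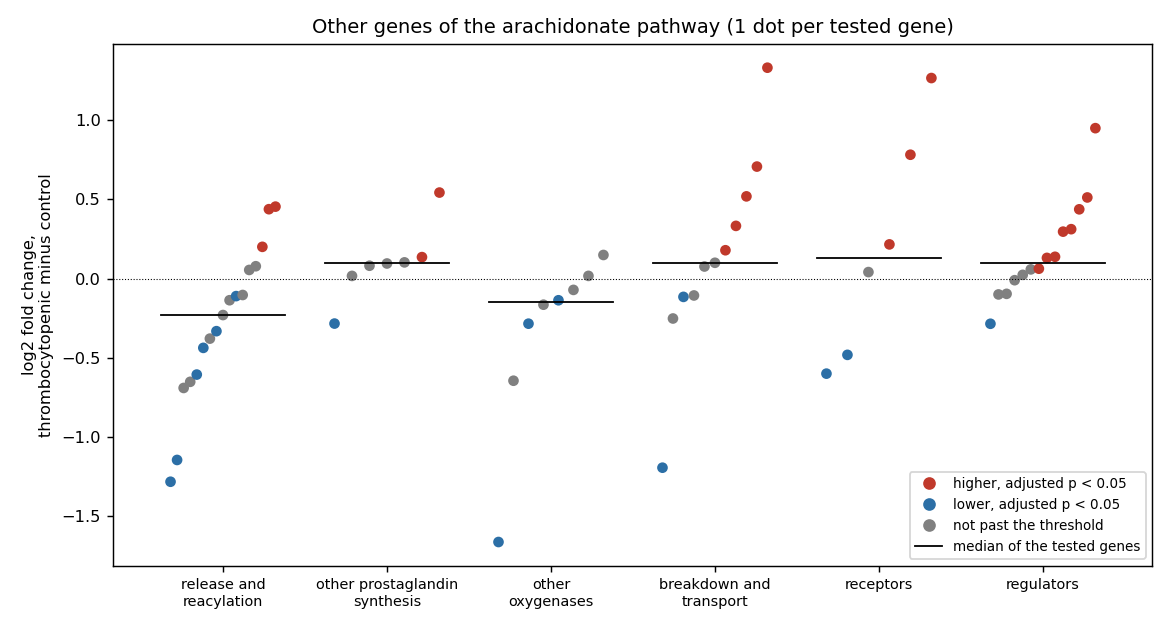
Each dot is the edgeR log2 fold change of 1 tested gene in 6 lists around the enzymes, red where higher, blue where lower and grey where not past an adjusted p of 0.05, with the median of each list as a line. Each list holds fold changes in both directions, and calls in both directions as well except for other oxygenases, where no gene was called higher.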

How the data were processed

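Gene counts of 6 libraries were analysed as deposited, 1 file per library. The deposited values are unnormalized whole-number counts, and CPM were computed from them here. The submitters' processing notes list Salmon 1.5.2, featureCounts, Subread 2.0.1, STAR 2.7.9a and fastp 0.23.1. The sources used here do not give their roles, a genome build, an annotation or a strand setting, so overlapping genes are uncertain. Per the labels' protocols the libraries were stranded TruSeq mRNA. In GENCODE M21 4 enzyme genes share exon bases with an antisense gene, each with at most 2 counts in a library.

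In R 4.3.3, genes passing filterByExpr (minimum count 10, minimum total 15; 12488 genes) were compared with edgeR 4.0.16 (TMM factors 0.9943 to 1.002, robust quasi-likelihood, group only, two-sided, Benjamini-Hochberg over all tested genes, threshold 0.05). Each standard error is the size of the log2 fold change over the square root of F. CPM use TMM-scaled totals, except marker sums, which use library totals. Marker sums and count ratios (0.5 added) had exact permutation tests, all sums at p = 0.1, the smallest possible. Alternatives used DESeq2 1.42.0 and limma 3.58.1 with other scalings and filters. The steps were tested on simulated data.

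The enzyme genes and lists were chosen with earlier results of these data known. From each list were named up to 3 higher and 3 lower called genes by fold change with at least 1 CPM, and up to 2 not past the test with at least 10 CPM. Genes given as exceptions were chosen after their values were seen. Of the marker lists not described in the text, dendritic markers were lower in 5 of 6 tested genes (227 to 233 against 304 to 321 CPM summed), B cell markers higher in 1 of 2 (13.4 to 15.1 against 11.0 to 13.0 CPM), and erythroid markers lower in 1 of 1 (at most 0.056 against 1.89 to 2.42 CPM), a gene that passed the filter only through the controls, as did the 1 tested T and NK cell marker. RefSeq start windows were found for 9 of the 10 enzyme genes.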

Additional observations from a re-analysis of the deposited data

How the results depend on the processing

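The log2 fold changes of the 10 enzyme genes kept their direction under every alternative run: scaling by library totals, upper quartiles or RLE, limma-voom, DESeq2, a non-robust fit, no filter on low counts, a filter of 1 CPM in 3 libraries, the replicate block and leaving out each library. Ptgs1 and Ltc4s gave no value under the 1 CPM filter. Calls of Pla2g4a, Ptgs2, Ptges, Tbxas1, Alox5, Alox5ap and Lta4h held throughout, while those of Hpgds and Ltc4s were lost in 5 of 15 and 8 of 14 alternatives. Ptgs2 was at 1.36 to 1.47 and Alox5ap, the smallest of those that held, at 0.082 to 0.14. Ptgs1 passed in none (-0.67 to -0.19). The members called ranged from 7 to 9, with 7 under DESeq2. Other pathway genes called higher ranged from 18 to 22 and lower from 10 to 17. The receptors called fell from 5 to 3 without thrombocytopenic replicate 1. The difference between the groups in the log2 ratio of Alox5 to Pla2g4a, near 0, ranged from -0.085 to 0.044 over the leave-one-out values. The differences of the other 8 ratios kept their direction. Same-numbered libraries of the groups did not deviate together (correlations of -0.118 to -0.0297), and differently numbered ones had correlations of -0.0712 to 0.105. Deviations from means of 3 libraries cannot show whether equal numbers mark a pairing. With the replicate block 8 enzyme genes were called and all tested genes called numbered 5402 against 5626. Depth limits Ptgs1 and Ltc4s, which had at most 38 and 11 counts in a library.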
